A study of Homo sapiens with 19 samples.

Results

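Of the 33382 genes measured by RNA-seq in H1-EED-/-/EED-OE cells, 104 (0.3115%) form a late step and were selected on the sample taken 28 days after doxycycline (DOX) withdrawal. TPM is a transcript level scaled for gene length and library size, and v stands for TPM plus 1. A gene was chosen when v at day 28 was at least 4 times v in each of the 6 other samples of these cells and its TPM at day 28 was at least 10. H1 is an established line of human embryonic stem cells (hESCs). In H1-EED-/-/EED-OE cells the endogenous EED gene was deleted by CRISPR/Cas9 and a lentiviral, DOX-inducible EED supplied the protein until DOX was removed. One sample had DOX, and 1 sample each was taken on days 8, 12, 16, 20, 24 and 28 after DOX removal. The values of these 7 samples chose the genes, have no replicates and are therefore described without a test. The other 12 samples took no part in the choice and give the comparisons. They are 2 each of wild-type (WT) H1 cells, of the single knockouts EED-/-, SUZ12-/-, EZH2-/- and EZH1-/- and of the double knockout EZH2-/-/EZH1-/-. Each knockout deleted the functional domain of its gene by CRISPR/Cas9 and a targeting cassette, and all cells share the H1 background. By their labels the 2 samples of a knockout differ in clone or passage, so the spread between them may be clonal or technical. The labels state no separate cultures, and p-values measure only the spread between these samples.

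EED, SUZ12 and a methyltransferase, EZH1 or EZH2, form the core of polycomb repressive complex 2 (PRC2), which places methyl groups on lysine 27 of histone H3 (H3K27me3) at silent developmental genes. EED reads the mark and stimulates the enzyme, and SUZ12 holds the complex together. In hESCs the mark covers many regulators and signalling genes of later lineages. By the study's western blots, the double knockout and the SUZ12-/- and EED-/- lines lack H3K27me3 and are called PRC2-null below, whereas WT, EZH1-/- and EZH2-/- H1 cells retain it.

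The values were TPM that sum to 1000000 in each sample, so the depth behind them is unknown and no counting interval is given. Between 19117 and 23012 genes per sample had a TPM above 0. EED was at 108.54 TPM with DOX and between 12.64 and 31.56 TPM from day 8 to day 28, and EED-/- H1 cells had 14.25 and 22.36 TPM beside 17.3 and 21.96 TPM in WT H1. These values per gene do not tell where in EED the reads lie. Whether they come from outside the deleted domain was not tested, so EED does not check that line. POU5F1 (OCT4), the defining pluripotency factor, was at 2916.0 TPM with DOX, 46.24 TPM at day 24 and 33.56 TPM at day 28. It was at 2428.15 to 3456.09 TPM in the 6 samples that retain H3K27me3, and at 3.62 to 149.79 TPM in the 6 PRC2-null samples. The 2 replicates of a line differed by a median of 0.0527 on the log2 scale in SUZ12-/- H1 and of 0.411 in EZH2-/-/EZH1-/- H1 cells, for genes with a mean TPM of at least 100. In these bulk samples, fewer cells of a type and less RNA per cell cannot be told apart.

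The rule describes a step rather than a gene that was silent before. The 104 genes had a median of 0.385 TPM with DOX, 0.885 at day 8, 0.95 at day 12, 0.98 at day 16, 1.475 at day 20, 4.51 at day 24 and 40.56 at day 28. Their summed TPM went from 276.0 with DOX to 1193.0 at day 24 and 9355.0 at day 28. At day 24, 93 of the 104 already had a TPM of at least 1, and 72 had a v at least 2 times that with DOX. For days 8, 12, 16 and 20 the latter count was 14, 9, 14 and 41. Of all genes with a day 28 TPM of at least 10, the share was 9.507%, 10.54%, 12.8% and 21.02% on these days and 28.36% at day 24. Only 4 genes stayed under 1 TPM in all 6 other samples, 49 stayed under 5 TPM, and 34 reached 10 TPM or more in at least 1 of them. The highest other sample was day 24 for 70 genes, day 20 for 19, day 16 for 7, day 8 for 6 and day 12 for 2. The 4 genes under 1 TPM before were FABP4, KRTAP2-3, TMEM215 and EPHA3.

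The day 28 levels ran from 10.49 TPM (ADGRF5) to 1185.54 TPM (IGFBP5), and 23 genes were at 100 TPM or more. The ratio of v at day 28 to the highest other sample had a median of 5.504, was at least 10 for 15 genes and was between 4 and 5 for 37. Just inside the fold were CLDN1 (ratio 4.003) and PGM5 (4.028), and just outside it were TINAGL1 (3.996) and SLC2A14 (3.926). By TPM, ADGRF5 (10.49) and EPHA3 (10.81) were just inside, and FBXO32 and ACTBL2, both at 9.83 TPM, just outside. Put in place of day 28, the sample with DOX met the same rule for 1 gene, day 8 for 9, day 12 for 1, day 16 for 1, day 20 for 37 and day 24 for 26. Without day 24 among the 6 other samples the rule took 458 genes, the 104 included, and with median-ratio scaling of the 7 samples it took 69.

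GENCODE placed 103 of the 104 on GRCh38, on 23 chromosomes, as 99 protein-coding genes and 4 long non-coding RNAs. Chromosome 7 held 10 of them, the most. Among the neighbours, PRSS1 and PRSS2, near-identical trypsinogen genes on chromosome 7, lie 7326 bases apart, and their reads may be shared. PGM5-AS1 overlaps PGM5 and FLJ16779 overlaps NKAIN4 on the opposite strand. Whether reads were counted by strand is not given in the sources used here, so the reads of these pairs may not be separate. KRTAP2-3 and LIMS3 belong to groups of near-identical copies and are equally uncertain.

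For 73 of the 104 genes RefSeq gave the promoter from 250 bases before to 50 bases after the start (GRCh38.p14). The 250 upstream bases are shown, 5′ to 3′ on the strand of the gene, for the 2 genes with the largest ratio, IGFL2 and PTHLH, for the activin subunit INHBA and its antagonist FST, and for the cell cycle inhibitor CDKN2B, whose levels in the 3 PRC2-null lines did not overlap. Capitals mark the motifs that were searched on both strands, namely TATAAA for the TATA box, AGATAA for the GATA motif, TGACTCA for the AP-1 motif, GGGCGG for the GC box and CACGTG for the E-box. IGFL2 lies at chr19:46147988-46148237 (plus strand), PTHLH at chr12:27969977-27970226 (minus strand), INHBA at chr7:41703091-41703340 (minus strand), FST at chr5:53480379-53480628 (plus strand) and CDKN2B at chr9:22009306-22009555 (minus strand).
IGFL2: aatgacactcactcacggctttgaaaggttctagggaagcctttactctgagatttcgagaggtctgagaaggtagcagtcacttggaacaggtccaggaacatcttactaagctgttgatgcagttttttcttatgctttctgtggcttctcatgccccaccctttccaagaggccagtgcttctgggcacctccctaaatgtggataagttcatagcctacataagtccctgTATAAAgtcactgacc
PTHLH: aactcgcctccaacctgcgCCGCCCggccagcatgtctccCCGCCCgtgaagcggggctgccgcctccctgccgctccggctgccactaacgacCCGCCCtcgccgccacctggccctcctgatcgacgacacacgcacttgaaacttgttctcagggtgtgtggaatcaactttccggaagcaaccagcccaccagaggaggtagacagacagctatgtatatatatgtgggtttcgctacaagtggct
INHBA: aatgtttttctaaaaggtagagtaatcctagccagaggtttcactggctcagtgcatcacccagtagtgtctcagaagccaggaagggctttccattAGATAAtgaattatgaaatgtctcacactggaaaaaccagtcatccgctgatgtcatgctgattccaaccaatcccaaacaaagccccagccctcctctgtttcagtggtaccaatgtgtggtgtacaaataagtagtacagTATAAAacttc
FST: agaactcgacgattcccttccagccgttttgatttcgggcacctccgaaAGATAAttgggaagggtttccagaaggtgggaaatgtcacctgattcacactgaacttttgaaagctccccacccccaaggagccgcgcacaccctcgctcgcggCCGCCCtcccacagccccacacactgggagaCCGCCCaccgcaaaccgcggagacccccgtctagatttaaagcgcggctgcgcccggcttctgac
CDKN2B: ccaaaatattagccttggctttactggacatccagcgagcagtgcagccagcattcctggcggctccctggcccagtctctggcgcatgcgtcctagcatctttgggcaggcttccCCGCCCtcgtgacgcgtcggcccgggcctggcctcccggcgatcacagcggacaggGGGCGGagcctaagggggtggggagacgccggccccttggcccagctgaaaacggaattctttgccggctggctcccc
TATAAA began 16 bases before the start of IGFL2 and 11 bases before that of INHBA. PTHLH held GGGCGG 3 times on the opposite strand, FST held it 2 times on that strand and CDKN2B once on each strand. AGATAA began 153 bases before the start of INHBA and 201 bases before that of FST. Over the full window, TATAAA was found in 14 of the 73 promoters (19.18%) and in 11.53% of all 35116 promoters in the table, and TGACTCA in 8 (10.96%) and 4.949%. The share with AGATAA was 13.7% beside 10.33%, with GGGCGG 46.58% beside 44.95% and with CACGTG 6.849% beside 7.256%. The median GC content was 59.0% beside 58.67%, and the observed to expected ratio of CpG was 0.5552 beside 0.5791. These are descriptions of letters, not of binding. Within the 5, IGFL2 and INHBA had few CpG (ratios of 0.1151 and 0.07162) and FST the most (1.065).

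The levels in the 6 lines were next examined. In WT H1 cells the median of the 104 genes was 0.49 and 0.55 TPM in the 2 samples. It was 0.55 and 0.62 TPM in EZH1-/- H1 and 0.49 and 0.355 TPM in EZH2-/- H1 cells. It was 44.06 and 38.95 TPM in EED-/- H1, 21.77 and 23.52 TPM in EZH2-/-/EZH1-/- H1 and 12.45 and 12.71 TPM in SUZ12-/- H1 cells. Thus the 3 lines that retain H3K27me3 were low and close to the cells with DOX, and the 3 PRC2-null lines were high, in the order EED-/-, EZH2-/-/EZH1-/- and SUZ12-/- H1. For 90 of the 104 genes the 6 PRC2-null samples were all above the 6 others, beside 24.2% of the 19100 genes tested. The 14 exceptions were HMOX1, CCDC129, DPPA3, MYL7, ABTB2, DACT2, ACTA1, PORCN, PGM2L1, RP11-337C18.10, APLN, LIMS3, LGI2 and CRB3. Of the 104, 58 reached the level needed for testing through the PRC2-null samples alone, which helps to fix the count of 90. How many of the 90 are among these 58 was not counted.

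**Figure D1:**
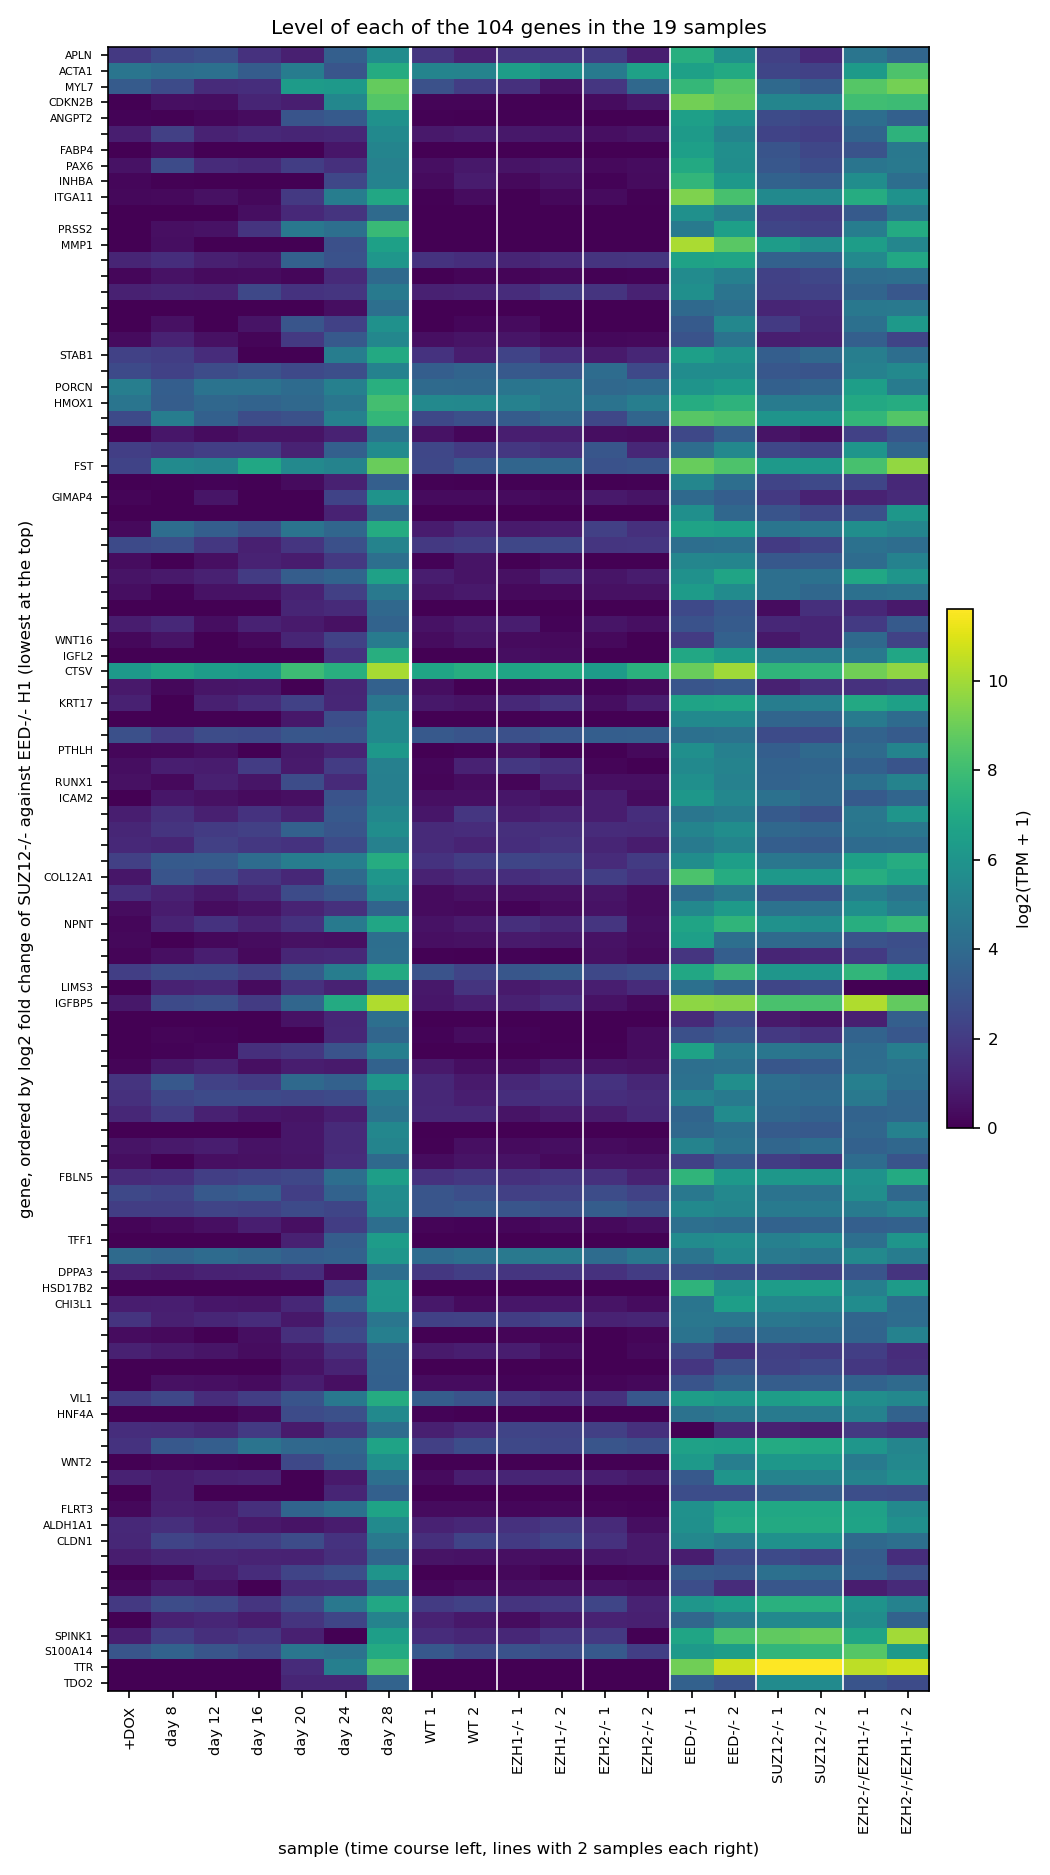
Level of each of the 104 genes, as log2(TPM + 1), in the 19 samples, with the time course on the left and the 2 samples of each line on the right. Genes are ordered by the difference between SUZ12-/- and EED-/- H1 cells, and only rows of genes with a test in the text carry a name. Most rows are dark in the 6 samples of WT, EZH1-/- and EZH2-/- H1 cells and light at day 28 and in the PRC2-null samples, and the rows at the top are darker in SUZ12-/- H1 than in the other PRC2-null lines.

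To ask which of the 104 genes differed between the lines, limma was fitted to log2(TPM + 1) over the 19100 genes that reached 1 TPM in 2 or more of the 12 samples. A gene was called when its adjusted p (Benjamini-Hochberg) did not exceed 1% and its fold change reached 3. On this scale a fold change understates the change of a gene with a low level. All 104 genes passed the filter, but 58 of them passed through the PRC2-null samples alone. This made a difference from WT H1 likely in advance, though PRR9, 1 of the 58, was called in no line. Among the 58 are IGFL2, PTHLH, INHBA, WNT2, WNT16, TTR, HNF4A, TFF1, PRSS2, MMP1, ANGPT2, CDKN2B, FABP4, HSD17B2, CHI3L1 and GIMAP4. The p-values of the 58 against WT H1 are descriptions, since the samples compared also let these genes in. Against WT H1 cells, 95 of the 104 were called higher in EED-/- H1 (16.2% of all genes tested), 90 in EZH2-/-/EZH1-/- H1 (11.6%) and 70 in SUZ12-/- H1 (14.5%). None was called lower in EED-/- H1 (6.09% of all genes) or EZH2-/-/EZH1-/- H1 (5.66%), where 0 and 1 had an unadjusted p under 0.05 in that direction, and 1, ACTA1, was called lower in SUZ12-/- H1 (5.21%). When the filter was applied to the lines that retain H3K27me3 alone, a choice made after the data were seen, 46 of the 104 passed, of which 40 were called higher in EED-/- H1, beside 13.4% of the 15841 genes that passed there, 39 in EZH2-/-/EZH1-/- H1 (9.1%) and 30 in SUZ12-/- H1 (10.1%). The median log2 fold change of the 104 was 4.12, 3.60 and 2.82 in EED-/-, EZH2-/-/EZH1-/- and SUZ12-/- H1 cells, where that of all genes tested was 0.36, 0.19 and 0.22. Median-ratio scaling moved the median of all genes by -0.31 in EED-/-, -0.13 in EZH2-/-/EZH1-/- and -0.15 in SUZ12-/- H1 cells and left 94, 87 and 68 of the 104 called higher.

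In EZH1-/- H1 cells limma called 0 of the 104 in either direction (0.0576% of all genes were called higher and 0.0419% lower), and in EZH2-/- H1 cells 0 of the 104 (0% of all genes in either direction). At an unadjusted p under 0.05, 5 were higher and 3 lower in EZH1-/- H1, and 1 was higher and 2 lower in EZH2-/- H1 cells.

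By line, 69 of the 104 were called higher in all 3 PRC2-null lines, beside 7.817% of all genes tested, a count that the 58 genes admitted by the PRC2-null samples help to fix. Of the 46 that passed on the lines that retain H3K27me3, 30 were called in all 3, beside 6.022% of the 15841 genes that passed there. Of the 104, 22 were called higher in exactly 2 lines (4.812% of all genes tested), 4 in exactly 1 (9.267%) and 9 in none (78.1%). Among the 22, 21 were called in EED-/- and EZH2-/-/EZH1-/- H1 but not in SUZ12-/- H1 cells. These were KRTAP2-3, HMOX1, CCDC129, CRYGS, PRSS2, VGLL2, PRSS1, PGM5-AS1, WNT16, ATP13A4, MYL7, CPN1, SPATA17, DACT2, PORCN, PCSK1, PGM2L1, CTSV, CACNA1E, APLN and SLC1A1. GIMAP4, GIMAP5, LRRC36 and LIMS3 were called in EED-/- H1 alone. The 9 that were called higher in none were PRR9, DPPA3, ABTB2, ACTA1, ISM2, RP11-337C18.10, LGI2, CRB3 and 1 other non-coding RNA. RP11-337C18.10 had 16.26 TPM at day 28 but 0.0 and 1.43 TPM in EED-/- H1, overlapping the 1.02 and 1.68 TPM of WT H1 cells. Passing in one line and not in another does not show that the lines differ, and the direct tests between them are given further on.

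Secreted growth factors and their partners gave 5 of the 107 listed genes in the files. Summed over the list, they had 13080.0 TPM at day 24 and 12350.0 TPM at day 28. IGFBP5, which binds insulin-like growth factors, had the highest day 28 level of the 104. It stood at 0.68 TPM with DOX, 5.12, 5.96, 2.99 and 13.19 on days 8, 12, 16 and 20, 133.48 at day 24 and 1185.54 at day 28. IGFBP5 was at 0.65 and 0.96 TPM in WT H1, 1.08 and 1.74 in EZH1-/- H1 and 0.48 and 0.19 in EZH2-/- H1. It was at 796.19 and 720.51 in EED-/- H1, 302.5 and 308.28 in SUZ12-/- H1 and 1183.82 and 445.0 in EZH2-/-/EZH1-/- H1 cells. No PRC2-null sample overlapped the others, and the log2 fold changes against WT H1 were 8.72 ± 0.37 (SE) in EED-/- (limma, adjusted p = 1.03e-07), 7.41 ± 0.37 in SUZ12-/- (3.4e-07) and 8.66 ± 0.37 in EZH2-/-/EZH1-/- H1 cells (1.33e-07).

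INHBA encodes the subunit of activin A, and FST encodes follistatin, the secreted protein that binds and neutralises activin. INHBA was listed at 0.0 to 0.14 TPM up to day 20, at 4.6 TPM at day 24 and at 33.91 TPM at day 28. FST had been present much earlier, with 4.03 TPM with DOX, 45.82 at day 8, 38.73 at day 12, 119.41 at day 16, 42.9 at day 20, 35.76 at day 24 and 493.87 at day 28. Thus the antagonist was the more abundant transcript at every time, as it was in every line. FST had 4.74 and 7.99 TPM in WT H1, 12.78 and 13.74 in EZH1-/- H1 and 6.65 and 7.39 in EZH2-/- H1. In the PRC2-null lines it had 476.8 and 324.34 in EED-/- H1, 73.93 and 73.04 in SUZ12-/- H1 and 301.06 and 824.44 in EZH2-/-/EZH1-/- H1 cells. INHBA had 0.28 and 0.84 TPM in WT H1, 0.22 and 0.48 in EZH1-/- H1, and 0.09 and 0.28 in EZH2-/- H1. In the PRC2-null lines it had 199.78 and 70.95 in EED-/- H1, 11.51 and 9.84 in SUZ12-/- H1 and 51.02 and 17.46 in EZH2-/-/EZH1-/- H1 cells. FST rose by 5.78 ± 0.40 (log2, SE) in EED-/- (limma, adjusted p = 1.47e-06), 3.37 ± 0.40 in SUZ12-/- (5.91e-05) and 6.12 ± 0.40 in EZH2-/-/EZH1-/- H1 cells (1.6e-06). INHBA rose by 6.29 ± 0.53 (5.09e-06), 2.92 ± 0.53 (0.00102) and 4.34 ± 0.53 (8.93e-05) in the same order, but its rise in SUZ12-/- H1 did not pass without the first WT H1 sample (2.66) or the first SUZ12-/- H1 sample (2.82).

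Of the WNT ligands, WNT2 was listed at 0.0 to 0.11 TPM up to day 16 and at 4.64, 10.86 and 53.8 TPM on days 20, 24 and 28. It was listed at 0 in all 6 samples that retain H3K27me3. It had 76.86 and 29.97 TPM in EED-/- H1, 68.62 and 65.54 in SUZ12-/- H1 and 26.13 and 41.99 in EZH2-/-/EZH1-/- H1 cells, above WT H1 with adjusted p of 1.59e-06, 1.1e-06 and 4.63e-06 (limma). WNT16 was at 3.83 TPM at day 24 and 27.44 TPM at day 28, and in the lines it was lower than at day 28, with 3.07 and 11.15 TPM in EED-/- H1, 0.7 and 1.28 in SUZ12-/- H1 and 14.6 and 3.87 in EZH2-/-/EZH1-/- H1 beside 0.31 and 0.56 in WT H1. It was called in EED-/- (log2 2.30 ± 0.56, adjusted p = 0.00575) and EZH2-/-/EZH1-/- H1 (2.61 ± 0.56, 0.00343). Without the higher knockout sample the values were 1.51 and 1.77 and did not pass. Without either WT H1 sample they did not pass either, at values close to those of the full fit (2.17 and 2.42, and 2.48 and 2.73). PORCN, the enzyme that acylates WNT ligands for secretion, ran between 10.01 and 32.36 TPM until day 24 and reached 159.28 TPM at day 28. In the lines PORCN was at 15.27 and 14.4 TPM in WT H1, 62.61 and 81.98 in EED-/- H1, 89.66 and 27.3 in EZH2-/-/EZH1-/- H1 and 10.82 and 12.63 in SUZ12-/- H1, where it was below all 6 samples that retain H3K27me3 (-0.32 ± 0.42, adjusted p = 0.565). PORCN was called in EED-/- (2.20 ± 0.42, 0.00131) and EZH2-/-/EZH1-/- H1 (1.68 ± 0.42, 0.00788), and neither call passed without either WT H1 sample (2.24 and 2.16, and 1.72 and 1.64) or the higher knockout sample (2.01 and 0.84). Under median-ratio scaling the second was 1.53 and no longer reached the fold of 3.

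The 2 largest ratios were also those of secreted ligands, though neither is on the list of growth factors. IGFL2, an IGF-like protein, was listed at 0 with DOX and to day 20, at 2.28 TPM at day 24 and at 154.24 TPM at day 28, a ratio of 47.33. PTHLH, the parathyroid hormone-related protein, went from at most 1.21 TPM to 70.73 TPM, a ratio of 32.46. IGFL2 was listed at 0 in WT and EZH2-/- H1 and at 0.36 and 0.25 TPM in EZH1-/- H1. It had 121.19 and 78.27 TPM in EED-/- H1, 27.82 and 25.45 in SUZ12-/- H1 and 24.06 and 114.73 in EZH2-/-/EZH1-/- H1 cells (limma, adjusted p = 4.61e-06, 4.55e-05 and 1.75e-05 against WT H1). PTHLH had 0.0 and 0.09 TPM in WT H1, 52.87 and 31.58 in EED-/- H1, 10 and 14.59 in SUZ12-/- H1 and 15 and 36.0 in EZH2-/-/EZH1-/- H1. It was called in all 3, by 5.33 ± 0.42 (log2, SE) in EED-/-, 3.65 ± 0.42 in SUZ12-/- and 4.54 ± 0.42 in EZH2-/-/EZH1-/- H1 cells (adjusted p = 3.3e-06, 4.64e-05 and 1.42e-05).

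Genes of liver, yolk sac and gut formed the next groups, with 3 of 59 listed genes of liver and yolk sac (TTR, SPINK1 and VIL1) and 5 of 49 of kidney and gut (HNF4A, VIL1, TFF1, PRSS1 and PRSS2). TTR, the carrier of thyroxine and retinol-binding protein, was listed at 0 up to day 16 and at 1.67, 30.61 and 324.48 TPM on days 20, 24 and 28. All 6 samples that retain H3K27me3 listed it at 0. EED-/- H1 had 534.83 and 1693.6 TPM, SUZ12-/- H1 2997.24 and 3079.75 and EZH2-/-/EZH1-/- H1 1368.51 and 1746.31, so day 28 was below every PRC2-null sample. The adjusted p against WT H1 was 7.75e-08, 2.84e-08 and 7.83e-08 in limma. SPINK1, a trypsin inhibitor, was at 0.0 to 3.34 TPM through day 24 and at 89.42 TPM at day 28. It had 1.81 and 1.35 TPM in WT H1, 112.49 and 314.59 in EED-/- H1, 436.66 and 486.23 in SUZ12-/- H1 and 109.52 and 998.58 in EZH2-/-/EZH1-/- H1, with log2 fold changes of 6.20, 7.49 and 7.01, each ± 0.89 (adjusted p = 0.000203, 6.22e-05 and 0.000118).

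HNF4A, a nuclear receptor of hepatic and visceral endoderm cells, was listed at 0 up to day 12, at 0.2 TPM at day 16, at 5.29 and 6.14 TPM on days 20 and 24 and at 44.63 TPM at day 28. It rose in the 3 PRC2-null lines from 0.07 and 0.0 TPM in WT H1 to 19.87 and 24.3 TPM in EED-/- H1, 25.79 and 26.71 in SUZ12-/- H1 and 33.78 and 11.7 in EZH2-/-/EZH1-/- H1 (log2 4.47, 4.72 and 4.34, each ± 0.40, limma adjusted p = 7.08e-06, 5.56e-06 and 1.34e-05). TFF1, a secreted gut peptide, was listed at 0 in the 6 samples that retain H3K27me3 and up to day 16. It had 1.11, 9.67 and 83.47 TPM on days 20, 24 and 28, 47.74 and 51.17 in EED-/- H1, 32.55 and 44.33 in SUZ12-/- H1 and 17.62 and 65.69 in EZH2-/-/EZH1-/- H1 (adjusted p = 4.71e-06, 8.16e-06 and 1.36e-05). VIL1, a protein of intestinal microvilli, had 9.69 and 6.82 TPM in WT H1, 85.49 and 71.63 in EED-/- H1, 86.96 and 99.18 in SUZ12-/- H1 and 52.0 and 41.55 in EZH2-/-/EZH1-/- H1. It was called in all 3 lines at log2 3.12, 3.36 and 2.38, each ± 0.41 (adjusted p = 0.000109, 7.15e-05 and 0.000867), the last not without the second WT H1 sample (2.15). PRSS2 had its day 28 level of 229.08 TPM above all PRC2-null samples, of which EZH2-/-/EZH1-/- H1 had 29.24 and 133.46, EED-/- H1 25.73 and 92.03 and SUZ12-/- H1 only 4.29 and 3.78 TPM. It was listed at 0 in the 6 other samples and was called in EED-/- (adjusted p = 4.43e-05) and EZH2-/-/EZH1-/- H1 (4.18e-05) but not in SUZ12-/- H1 (0.0128). PRSS2 did pass there with the replicate block, with a pseudocount of 0.1 and in a fit of only the 4 samples compared.

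Matrix and protease genes were few among the 104, with 1 of 44 collagens (COL12A1), 1 of 66 other matrix genes (FBLN5) and 3 of 58 proteases and inhibitors (MMP1, CTSV and SPINK1). Summed over each list, collagens had 13280.0 TPM at day 24 and 11980.0 TPM at day 28. Other matrix genes had 21940.0 and 22590.0 TPM, and proteases and inhibitors 11730.0 and 26770.0 TPM. MMP1, interstitial collagenase, was listed at 0 in all 6 samples that retain H3K27me3, at 6.13 TPM at day 24 and at 93.88 TPM at day 28. EED-/- H1 had 1121.83 and 395.37 TPM, SUZ12-/- H1 84.37 and 52.75 and EZH2-/-/EZH1-/- H1 87.24 and 39.21 (limma, adjusted p = 2.57e-07, 3.9e-06 and 6.81e-06 against WT H1), so EED-/- H1 was above the other lines without overlap. CTSV, a lysosomal cysteine protease, was never low, with 72.89 TPM with DOX, 244.79 at day 20, 157.9 at day 24 and 1092.78 at day 28. It had 112.11 and 149.77 TPM in WT H1, 486.11 and 969.67 in EED-/- H1 (log2 2.40 ± 0.38, 0.000405), 532.79 and 811.77 in EZH2-/-/EZH1-/- H1 (2.33 ± 0.38, 0.000629) and 187.83 and 197.42 in SUZ12-/- H1 (0.57 ± 0.38, 0.247). ITGA11, a collagen receptor subunit, had 28.97 TPM at day 24 and 123.77 TPM at day 28, and reached 656.01 and 297.94 TPM in EED-/- H1 from 0.05 and 0.29 in WT H1 (log2 8.57 ± 0.44, 2.57e-07). COL12A1, a fibril-associated collagen, was called by 6.49, 4.95 and 5.73, each ± 0.35, in EED-/-, SUZ12-/- and EZH2-/-/EZH1-/- H1 (3.59e-07, 2.05e-06 and 1.3e-06), and FBLN5, an elastic-fibre protein, by 5.14, 4.37 and 4.73, each ± 0.46 (8.24e-06, 2.75e-05 and 2.15e-05). NPNT, an integrin ligand of basement membranes, was among the largest changes in EZH2-/-/EZH1-/- H1, with 153.08 and 213.96 TPM beside 0.5 and 0.81 in WT H1 (6.79 ± 0.43, 1.35e-06).

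Of 65 contractile genes, 2 were among the 104. MYL7, the atrial myosin light chain, ran at 1.7 to 9.19 TPM up to day 16, at 81.67 and 76.46 on days 20 and 24 and at 455.06 TPM at day 28. It had 6.3 and 3.32 TPM in WT H1, 210.08 and 374.56 in EED-/- H1, 370.89 and 578.53 in EZH2-/-/EZH1-/- H1 and only 14.54 and 9.46 in SUZ12-/- H1, where it overlapped the 2.56 and 13.91 TPM of EZH2-/- H1 cells. MYL7 was called in EED-/- (log2 5.65 ± 0.61, adjusted p = 2.96e-05) and EZH2-/-/EZH1-/- H1 (6.37 ± 0.61, 1.92e-05) but not in SUZ12-/- H1 (1.18 ± 0.61, 0.138). ACTA1, skeletal muscle actin, was at 7.25 to 28.07 TPM until day 24 and at 139.58 TPM at day 28. It was already expressed in the lines that retain the mark, with 36.99 and 35.17 TPM in WT H1, 85.42 and 53.36 in EZH1-/- H1 and 25.38 and 97.84 in EZH2-/- H1. Its 95.97 and 129.78 TPM in EED-/- H1 (1.60 ± 0.65, 0.0591) and 78.36 and 323.12 in EZH2-/-/EZH1-/- H1 (2.11 ± 0.65, 0.0218) were not called higher, although the latter was without the first EZH2-/-/EZH1-/- H1 sample (3.13) and the former was in a fit of only the 4 samples compared (1.60). In SUZ12-/- H1 it had 4.32 and 3.67 TPM and fell by 2.90 ± 0.65 (0.00382), a call that did not pass without any one of the 4 samples compared (fell by 2.80 to 2.99).

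Endothelial genes gave 4 of 38 listed genes, STAB1, APLN, ICAM2 and ANGPT2, and blood genes 1 of 49, RUNX1. The lists as a whole did not rise at this step. Summed over each list, endothelial genes had 3353.0 TPM at day 24 and 2837.0 TPM at day 28, and blood genes 725.3 and 528.0 TPM. ANGPT2, the vessel-destabilising angiopoietin, was listed at 0.06 to 0.3 TPM up to day 16 and was at 7.11, 8.86 and 56.39 TPM on days 20, 24 and 28. It had 91.77 and 58.28 TPM in EED-/- H1 (log2 6.17, adjusted p = 2.22e-07), 17.01 and 10.69 in EZH2-/-/EZH1-/- H1 (3.82, 6.01e-06) and 5.32 and 4.42 in SUZ12-/- H1 (2.51, 7.48e-05), each ± 0.31, from 0.04 and 0.02 in WT H1. APLN, the ligand of the apelin receptor, followed the same order with 152.81 and 56.14 TPM, 21.96 and 13.0, and 3.62 and 1.5 beside 2.42 and 1.13 in WT H1. APLN was called in EED-/- (5.12 ± 0.52, 1.93e-05) and EZH2-/-/EZH1-/- H1 (2.73 ± 0.52, 0.00172, not without the second WT H1 sample, 2.39, or the first knockout sample, 2.38). In SUZ12-/- H1 it was at 0.33 ± 0.52 (0.633), and the sign turned without the second WT H1 sample (-0.01) or the first SUZ12-/- H1 sample (-0.11). ICAM2, an endothelial adhesion molecule, was called by 5.28, 3.06 and 3.66, each ± 0.34 (1.02e-06, 5.2e-05 and 1.15e-05), and STAB1, a scavenger receptor of sinusoidal endothelium, by 4.95, 3.26 and 2.38, each ± 0.41 (4.53e-06, 0.000105 and 0.000722), in EED-/-, EZH2-/-/EZH1-/- and SUZ12-/- H1. The last call did not pass without the second WT H1 (2.01) or the second SUZ12-/- H1 sample (2.14). In the time course STAB1 was at 3.68 TPM with DOX, 0.03 and 0.0 TPM on days 16 and 20, and 29.41 and 131.06 TPM on days 24 and 28. RUNX1, a regulator of blood formation, was at 5.54, 1.62 and 30.68 TPM on days 20, 24 and 28 and was called in EED-/-, EZH2-/-/EZH1-/- and SUZ12-/- H1 (5.16, 4.47 and 3.52, each ± 0.39, adjusted p = 2.77e-06, 1.05e-05 and 3.84e-05).

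Epithelial genes gave 3 of 53, KRT17, CLDN1 and S100A14. KRT17, a keratin of basal and stressed epithelium, had 23.1 TPM at day 28 but 104.83 and 110.77 TPM in EED-/- H1, 28.9 and 31.79 in SUZ12-/- H1 and 125.92 and 96.47 in EZH2-/-/EZH1-/- H1, all above day 28, from 0.67 and 0.53 in WT H1 (log2 6.09, 4.29 and 6.12, each ± 0.27, adjusted p = 1.11e-07, 9.44e-07 and 1.33e-07). S100A14 was the highest of the 3 at day 28, with 132.79 TPM, and had 198.57 and 211.29 TPM in SUZ12-/- H1, 76.06 and 86.24 in EED-/- H1 and 366.62 and 72.64 in EZH2-/-/EZH1-/- H1 (4.79, 3.46 and 4.46 against WT H1, each ± 0.60, adjusted p = 9.03e-05, 0.000724 and 0.000174). CLDN1, a tight-junction protein, was called at 3.25 in EED-/- and 3.92 in SUZ12-/- H1 (3.62e-05 and 1.07e-05) and at 2.16 in EZH2-/-/EZH1-/- H1 (0.000762, not without the first WT H1 sample, 1.77), each ± 0.36. Of 54 neural genes, PAX6, an eye and forebrain regulator, was the only one among the 104. It was at 5.23 TPM at day 8, 2.08 TPM at day 24 and 32.76 TPM at day 28 and had 128.76 and 50.03 TPM in EED-/- H1, 21.91 and 24.47 in EZH2-/-/EZH1-/- H1 and 7.94 and 5.66 in SUZ12-/- H1 (5.72, 3.96 and 2.32, each ± 0.39, adjusted p = 1.38e-06, 2.14e-05 and 0.000629).

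Stress and cell cycle genes gave 2 of 45, and lipid genes 1 of 40. CDKN2B encodes p15INK4B, an inhibitor of the cyclin D kinases. It was at 0.0 to 1.28 TPM up to day 20, at 40.02 TPM at day 24 and at 362.05 TPM at day 28. It had 0.13 and 0.1 TPM in WT H1, 561.78 and 427.81 in EED-/- H1, 257.8 and 243.16 in EZH2-/-/EZH1-/- H1 and 38.28 and 34.08 in SUZ12-/- H1, in 4 separate levels without overlap (8.78, 7.82 and 5.06 against WT H1, each ± 0.24, adjusted p = 6.25e-09, 1.72e-08 and 2.56e-07). HMOX1, the heme-degrading oxygenase, was expressed throughout, at 9.73 to 22.56 TPM until day 24 and 278.95 TPM at day 28. It had 43.07 and 42.0 TPM in WT H1, 141.61 and 181.83 in EED-/- H1 (1.89 ± 0.24, 8.62e-05), 126.01 and 145.22 in EZH2-/-/EZH1-/- H1 (1.65 ± 0.24, 0.000296) and 27.27 in both samples of SUZ12-/- H1 (-0.62 ± 0.24, 0.0527). Under median-ratio scaling the rises were 1.5 in both lines and no longer reached the fold of 3, and without the second EZH2-/-/EZH1-/- H1 sample that line had 1.54. FABP4, a fatty acid carrier of adipocytes and capillaries, was listed at 0 in the 6 samples that retain the mark and at 0.62 TPM at day 24, and had 36.01 TPM at day 28, 93.14 and 52.15 in EED-/- H1, 6.89 and 23.55 in EZH2-/-/EZH1-/- H1 and 7.05 and 4.52 in SUZ12-/- H1 (adjusted p = 3e-06, 0.000104 and 0.000772, the last not passing without the first SUZ12-/- H1 sample, where the difference in log2(TPM + 1) was 2.46).

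Among the other named genes, ALDH1A1, which makes retinoic acid, was at 0.54 to 1.98 TPM until day 24 and at 45.53 TPM at day 28. It had 1.14 and 1.43 TPM in WT H1, 55.18 and 124.95 in EED-/- H1, 130.03 and 130.87 in SUZ12-/- H1 and 103.09 and 55.14 in EZH2-/-/EZH1-/- H1 (log2 5.21, 5.85 and 5.07, each ± 0.43, adjusted p = 4.95e-06, 2.57e-06 and 9.01e-06). HSD17B2, which oxidises estradiol, was listed at 0 in WT H1, had 66.24 TPM at day 28, 183.01 and 61.45 in EED-/- H1, 30.73 and 81.72 in EZH2-/-/EZH1-/- H1 and 82.86 and 88.79 in SUZ12-/- H1 (limma, adjusted p = 3.52e-06 for the last). FLRT3, a transmembrane adhesion protein, had 105.63 TPM at day 28 and 119.43 and 119.84 TPM in SUZ12-/- H1 (6.58 ± 0.39, 7.01e-07), and CHI3L1, a secreted chitinase-like protein and 1 of 49 listed cytokines, was called by 4.93, 4.78 and 4.29, each ± 0.60, in EED-/-, SUZ12-/- and EZH2-/-/EZH1-/- H1 (6.73e-05, 9.27e-05 and 0.000232). DPPA3, a germ cell and naive pluripotency gene and 1 of 44 listed germline genes, had 17.02 TPM at day 28 and only 6.04 and 5.49 TPM in EED-/- H1 beside 2.71 and 3.47 in WT H1 (0.73 ± 0.39, 0.14).

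Of the 24 gene lists, 9 held none of the 104, namely pluripotency (21 genes in the files), mesoderm and heart regulators (37), interferon response and antigen presentation (45), trophoblast and amnion (50), HOX genes (41), chondrocyte, bone and tendon (32), immune surface and complement (41), replication-dependent histones (51) and PRC2 subunits (11). Of the 41 HOX genes, 30 had a v at day 24 at least 4 times that with DOX, and 29 had it at day 28. For the endothelial list these counts were 30 and 28 of 38, and for the mesoderm list 24 and 19 of 37. In the lines, limma called 36, 32 and 34 of the 38 HOX genes tested higher in EED-/-, SUZ12-/- and EZH2-/-/EZH1-/- H1. The same counts were 30, 24 and 25 of 37 for endothelial genes, 27, 29 and 24 of 42 for collagens, 38, 47 and 33 of 60 for other matrix genes, 27, 49 and 19 of 55 for liver and yolk sac genes, and 14, 30 and 15 of 41 for kidney and gut genes. They were 56, 59 and 55 of 99 for growth factors, 33, 30 and 29 of 53 for proteases and 18, 13 and 19 of 45 for contractile genes. They were 15, 14 and 15 of 35 for epithelial genes, 11, 10 and 10 of 39 for neural genes and 9, 8 and 8 of 28 for blood genes. They were 19, 21 and 23 of 44 for stress genes, 13, 18 and 10 of 32 for lipid genes, 16, 19 and 9 of 33 for cytokines and 0, 1 and 0 of 11 for germline genes. For the lists with no member they were 2, 0 and 0 of 21 for pluripotency, where 15, 13 and 14 were called lower. They were 21, 22 and 20 of 35 for mesoderm, 6, 14 and 4 of 40 for interferon response, 16, 21 and 17 of 30 for trophoblast, 13, 12 and 12 of 27 for chondrocyte, bone and tendon, 8, 17 and 6 of 27 for immune surface, 3, 2 and 3 of 28 for histones and 0 of 11 in each line for PRC2 subunits. Fewer were called lower in most lists, with 7, 7 and 6 contractile, 7 each of neural and 4, 3 and 2 germline genes. The share of all genes called is given above, but genes admitted by the PRC2-null samples alone raise the counts of a list. Summed over the list, HOX genes had 0.06 to 1.74 TPM in the samples that retain H3K27me3, so none reached 1 TPM in 2 of them. The HOX genes tested thus entered through the PRC2-null samples, which favours their calls. How many genes of the other lists entered this way was not counted. The rises of the 104 in the PRC2-null lines went with these markers of several lineages and with the fall of the pluripotency list, and their part in the levels of the 104 was not tested.

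The PRC2-null lines were then compared with one another. The 104 were chosen for a high level in cells with EED deleted, so the choice itself may favour EED-/- H1, which was not tested. Clone and differentiated state also differ with the line and cannot be told apart from the gene deleted. Against EED-/- H1, 40 of the 104 were called lower in SUZ12-/- H1 (38.46%, beside 2.58% of all genes) and 1 higher (3.54% of all genes). The genes with the largest differences were APLN (-4.79 ± 0.52, limma adjusted p = 0.000151), ACTA1 (-4.50 ± 0.65, 0.000832), MYL7 (-4.46 ± 0.61, 0.000618), CDKN2B (-3.73 ± 0.24, 6.71e-06) and ANGPT2 (-3.66 ± 0.31, 2.64e-05). PAX6 (-3.40 ± 0.39, 0.000197), ITGA11 (-3.35 ± 0.44, 0.000465), MMP1 (-3.30 ± 0.48, 0.000897), HMOX1 (-2.51 ± 0.24, 6.05e-05) and FST (-2.40 ± 0.40, 0.00194) were lower as well. The 1 gene called higher was TDO2, which degrades tryptophan in liver and which was named after its value was seen, with 47.84 and 46.15 TPM in SUZ12-/- H1, 11.02 and 6.9 in EED-/- H1 and 11.73 at day 28 (2.30 ± 0.28, 0.000274). The count of 41 fell to 17 and 14 without the first or second SUZ12-/- H1 sample and was 33 and 35 without an EED-/- H1 sample, and it was 33 under median-ratio scaling. ACTA1, MYL7 and MMP1 did not pass without the second SUZ12-/- H1 sample (-4.40, -4.18 and -2.97), and FST did not without either SUZ12-/- H1 sample (-2.41 and -2.40) or the first EED-/- H1 sample (-2.13). The median log2 fold change of the 104 was -1.55, that of all genes -0.14.

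In EZH2-/-/EZH1-/- H1, limma called 2 of the 104 lower than in EED-/- H1 (0.0576% of all genes) and 0 higher (0.0314%). At an unadjusted p under 0.05, 33 of the 104 were lower and 3 higher. The median log2 difference was -0.48, and that of all genes -0.17. The 2 were LIMS3, with 0.01 and 0.0 TPM against 18.39 and 10.98 (-3.92 ± 0.37, adjusted p = 0.00555), and GIMAP4, an immune GTPase, with 1.18 and 1.64 TPM against 14.34 and 10.13 (-2.44 ± 0.31, 0.00972). Leaving out 1 of the 4 samples gave 0 to 9 such genes, with 0 without the first EED-/- H1 or the second EZH2-/-/EZH1-/- H1 sample and 7 and 9 without the other of each line. LIMS3 (-3.58 and -3.92) and GIMAP4 (-2.21 and -2.58) did not pass in the first 2 of these fits. Neither passed with no filter or in a fit of only the 4 samples, and GIMAP4 also did not pass with the replicate block (-2.44), with median-ratio scaling (-2.19) or with a pseudocount of 0.1 (-3.03). Against SUZ12-/- H1, 20 of the 104 were higher in EZH2-/-/EZH1-/- H1 (1.14% of all genes) and 4 lower (3.32%). Among the higher were MYL7 (5.19 ± 0.61, 0.000305), ACTA1 (5.01 ± 0.65, 0.000544) and CDKN2B (2.76 ± 0.24, 3.41e-05), and among the 4 lower were TDO2 (-2.75 ± 0.28, 9.71e-05), LIMS3 (-2.58 ± 0.37, 0.00112) and CLDN1 (-1.76 ± 0.36, 0.00868). The choice to name LIMS3, GIMAP4 and TDO2 came after seeing their values. This count of 24 was 6 and 7 without the first or second SUZ12-/- H1 sample, 32 and 22 without the first or second EZH2-/-/EZH1-/- H1 sample and 0 in a fit of only these 4 samples, and LIMS3 did not pass without either SUZ12-/- H1 sample (-2.75 and -2.40). CLDN1 did not pass without any one of the 4 samples (-1.63 to -1.90), with the replicate block, with a pseudocount of 0.1 (-1.82), with no filter or with the filter on the lines that retain H3K27me3.

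Set beside the constitutive knockout, the summed TPM of the 104 at day 28 was of the same size, while single genes lay far apart in both directions. MMP1 had 93.88 TPM at day 28 and 1121.83 and 395.37 in EED-/- H1, and GIMAP4 had 60.6 beside 14.34 and 10.13. Of the 104 genes, 31 were below both EED-/- H1 samples, 19 between them and 54 above both at day 28, and 60 were within the range of the 6 PRC2-null samples, 38 above all of them and 6 below all (SPINK1, ALDH1A1, TTR, KRT17, COL12A1 and GPRC5A). Since a high day 28 value chose the genes, these counts and the summed TPM are a description. The 15 genes with the highest levels at day 28 were IGFBP5, CTSV, FST, MYL7, CDKN2B, TTR, HMOX1, PRSS2, NKAIN4, PORCN, IGFL2, LYPD1, ACTA1, CDH6 and VIL1. NKAIN4, a neural membrane protein, had 204.12 TPM at day 28 and 375.77 and 329.73 TPM in EED-/- H1, and CDH6, a cadherin, 137.85 TPM beside 104.07 and 94.12. LYPD1 had 142.33 TPM, above both EED-/- H1 samples (50.76 and 89.86) and within the EZH2-/-/EZH1-/- H1 samples (94.94 and 143.22). The summed TPM of the 104 was 9355.0 at day 28, 10120.0 and 10280.0 in EED-/- H1, 7962.0 and 9747.0 in EZH2-/-/EZH1-/- H1, 6516.0 and 6605.0 in SUZ12-/- H1 and 308.0 to 469.2 in the 6 samples that retain H3K27me3. Of the 10 genes with the largest ratio, those not yet described were RP11-511B23.1, a non-coding RNA (40.76 TPM at day 28, 14.01 and 18.33 in EED-/- H1), UNC93A (36.82 TPM, and 35.48 and 20.67) and KRTAP2-3, a hair keratin-associated protein (18.03 TPM, and 14.64 and 17.51).

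**Figure D2:**
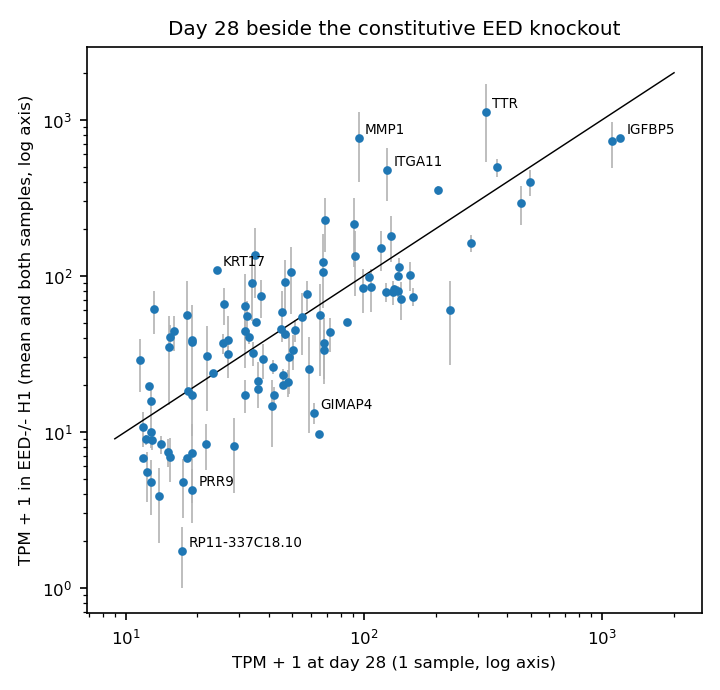
TPM + 1 of the 104 genes at day 28 (1 sample, x axis) against EED-/- H1 cells (y axis, mean as a point and both samples as a grey bar), on log axes with the line of equal values. MMP1, TTR and ITGA11 lie above the line, and GIMAP4, PRR9 and RP11-337C18.10 below it.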

How the data were processed

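RNA-seq values were the TPM deposited by the authors, 1 table per sample, made with RSEM and Bowtie2 from reads mapped to human GRCh38 mRNA sequences. TPM keep no read depth. The 12 samples of the 6 lines were fitted together with limma 3.58.1 in R 4.3.3 on log2(TPM + 1), with an intensity trend and robust variances (6 residual degrees of freedom), and p-values were adjusted by Benjamini-Hochberg over all 19100 genes. The time course had no test. The code was tested on simulated data. The members and gene lists were chosen with earlier results of these data known. Genes were named by rule, as the 15 with the highest day 28 TPM, the 10 with the largest ratio, those in a list, those with the largest changes per PRC2-null line and the threshold neighbours. Positions came from GENCODE and promoters from RefSeq. Alternatives covered the pseudocount, filter, scaling, fold of the rule, each sample left out, a replicate block and a looser call. The values of 1 member are not reported here by name.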

Additional observations from a re-analysis of the deposited data

Results flagged for a closer look

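The levels of the 104 genes differed between the PRC2-null lines in limma's direct test of 1 line against another. The genes were chosen in cells with EED deleted, and the part of that choice in these counts was not tested. In SUZ12-/- H1 cells 40 of the 104 were lower and 1 (TDO2) was higher than in EED-/- H1 cells. In EZH2-/-/EZH1-/- H1 cells 2 (LIMS3 and GIMAP4, the latter not with the replicate block) were lower than in EED-/- H1, and against SUZ12-/- H1 20 were higher and 4 (TDO2, LIMS3 and CLDN1 among them) lower. CLDN1 did not pass with the replicate block or without any one of the 4 samples.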

How the results depend on the processing

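Depth is unknown, which limits what can be said of genes listed at 0. The rule took 195 genes at a fold of 3, 21 at a fold of 8, 458 without day 24 and 69 with median-ratio scaling. With members chosen at a fold of 3, calls against WT H1 were 178 in EED-/-, 121 in SUZ12-/-, 162 in EZH2-/-/EZH1-/- and 1 in EZH1-/- H1, and with a fold of 8 they were 21, 15 and 20 in the PRC2-null lines. For SUZ12-/- against EED-/- H1 these settings gave 76 and 8 and for EZH2-/-/EZH1-/- against SUZ12-/- H1 42 and 5, and a fold of 8 gave 1 for EZH2-/-/EZH1-/- against EED-/- H1. The filter on the lines that retain H3K27me3, added after the data were seen, gave 40, 31 and 39 calls against WT H1 in EED-/-, SUZ12-/- and EZH2-/-/EZH1-/- H1, and 18, 1 and 11 in the comparisons between PRC2-null lines in the order given in the next sentence, since fewer genes were tested. An FDR of 5% without a fold gave 63 calls for SUZ12-/- against EED-/- H1, 10 for EZH2-/-/EZH1-/- against EED-/- H1 and 43 for EZH2-/-/EZH1-/- against SUZ12-/- H1. The last 2 had 1 and 14 calls with a pseudocount of 0.1 and 0 in fits of only the 4 samples, and the former had 0 with no filter. The cause was not tested. Leaving out 1 sample gave 89 to 92 calls in EED-/-, 64 to 68 in SUZ12-/- and 74 to 86 in EZH2-/-/EZH1-/- H1 against WT H1, 0 in EZH1-/- and EZH2-/- H1, 14 to 35 for SUZ12-/- and 0 to 9 for EZH2-/-/EZH1-/- against EED-/- H1, and 6 to 32 for EZH2-/-/EZH1-/- against SUZ12-/- H1.

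Replicate numbers did not pair the samples, since the mean correlation of same-numbered deviations was -0.00266 over 15 pairs of lines (-0.121 to 0.218). With the replicate block the calls were 96, 72, 92, 0 and 0 against WT H1 in EED-/-, SUZ12-/-, EZH2-/-/EZH1-/-, EZH1-/- and EZH2-/- H1, and 40, 2 and 25 between the PRC2-null lines. Of the single-gene tests printed, the block changed 3 calls, with PRSS2 in SUZ12-/- against WT H1 gained (2.33) and GIMAP4 in EZH2-/-/EZH1-/- against EED-/- H1 (-2.44) and CLDN1 in EZH2-/-/EZH1-/- against SUZ12-/- H1 (-1.76) lost. In fits of only the 4 samples compared, MMP1 and PAX6 in SUZ12-/- against EED-/- H1 and WNT16, PORCN, S100A14 and CLDN1 in EZH2-/-/EZH1-/- against WT H1 lost their calls, as did WNT16 in EED-/- against WT H1, and with a pseudocount of 0.1 so did ITGA11 in SUZ12-/- against EED-/- H1. Of 1196 alternatives for 126 single-gene tests, 1117 kept direction and call, 72 lost the call, 5 gained it and 2 reversed, both for APLN in SUZ12-/- against WT H1 (-0.009086 and -0.1105), which was not called and ran from -0.1105 to 0.7755 with 1 sample left out.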
